A study of Mus musculus with 4 samples.

Results

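The cells described here are 131 cardiomyocytes of the mouse atrioventricular canal at E9.5 that carried Rspo3 transcripts and little Myl2. They were picked from single-cell counts of unique molecular identifiers (UMIs), each of which tags 1 captured transcript. A cell counted as a cardiomyocyte when Myl7, Myl4, Tnnt2 and Actc1 together reached 100 UMIs per 10000 and the summed alpha and beta globin genes stayed under 1000 per 10000. It was a member when Myl2, the ventricular regulatory light chain, was under 10 per 10000 and at least 3 Rspo3 UMIs were counted. The members made up 24.1% of the 544 cardiomyocytes and 10.9% of the 1199 cells kept at E9.5 (at least 500 genes and at most 10% mitochondrially encoded UMIs), in a series of 2160 deposited cells. All cells came from 1 library, so there is no replicate, no value below carries a p-value, and every interval is a 95% interval for counting error alone.

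The study sorted tomato-positive cells from microdissected C57BL/6 hearts to follow the progenitors of the mitral valve. The mice combined Tie2-Cre, which is active in endothelial and blood-forming cells, with a Rosa26 tdTomato reporter, and embryos of each stage were pooled. The groups used were the atrioventricular canal at E9.5 (1 library, 1206 cells, 30819374 UMIs, median 24564.5 per cell), the mitral valve at E16.5 (1 library, 452 cells) and newborn mitral valve, labelled P0 (2 libraries, 291 and 211 cells). All groups carried the same Cre and reporter, and the reporter is not among the counted genes. By the same rule 0 members were found at E16.5, where 11 cells counted as cardiomyocytes (0 of 11 allows a share of up to 27.3%, as 3 counts of the total), and 0 at P0, where 0 and 1 cells did. The E16.5 cardiomyocytes had a median of 3334 UMIs, a depth at which a cell at the members' Rspo3 level would be expected to show fewer than 3 UMIs. Barcodes could not be tied to matrix columns in any library, so those shared between libraries were not counted.

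The atrioventricular canal is the stretch of the looping heart tube between atrium and ventricle. Its muscle keeps a primary, slowly conducting state while the chambers on either side mature, and the T-box repressors Tbx2 and Tbx3, induced by Bmp2, hold chamber genes such as Nppa off there. Canal muscle also secretes Bmp2 and Tgfb2, which act on the endocardium inside it, from which the valve cushions arise. Rspo3 encodes an R-spondin, a secreted protein that strengthens Wnt signalling through Lgr receptors and the ubiquitin ligases Znrf3 and Rnf43.

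The members carried a median of 6 Rspo3 UMIs (range 3 to 31), at a median depth of 24281 UMIs (range 7337 to 49821) and 4970 genes per cell. The other Myl2-low cardiomyocytes, 296 cells with a median of 24016 UMIs, were the closest comparison, since they share the Myl2 limit. Of these, 240 had 0 Rspo3 UMIs, 38 had 1 and 18 had 2, against 21 members with exactly 3. Summed over cells, Rspo3 (ENSMUSG00000019880, GRCm38 chr10:29452416-29535867, minus strand) stood at 2.97 per 10000 in the members and 0.105 in the other Myl2-low cells, a gap that the rule itself made. In erythroid cells of the same library, which should lack the gene, it stood at 0.0097. Myl2 was under 10 per 10000 by the rule, with a median of 1.93 in the members and 0.511 in the other Myl2-low cells.

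**Figure D1:**
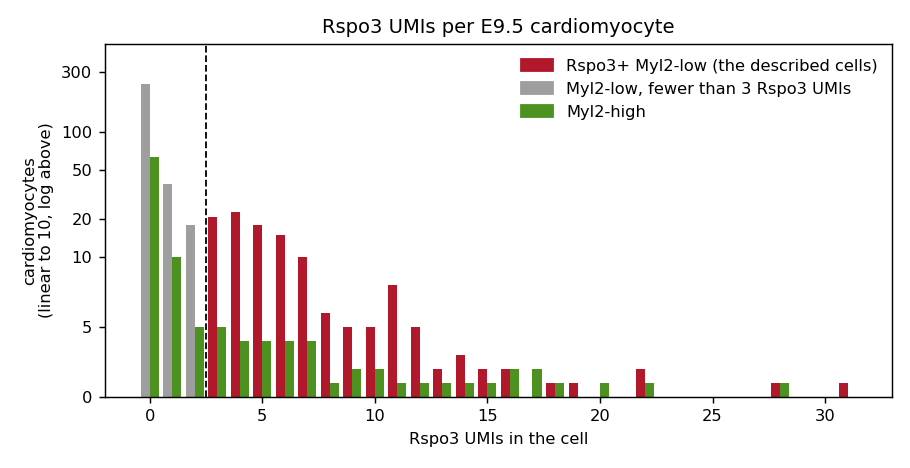
Number of E9.5 cardiomyocytes (vertical axis, linear to 10 and logarithmic above) by Rspo3 UMIs in the cell (horizontal axis), with Myl2-low cells in grey or red and Myl2-high cells in green. The dashed line marks the limit of 3 UMIs: 240 Myl2-low cells sit at 0, and the 131 members to the right of the line spread from 3 to 31 with no second peak away from the limit.

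Cells on either side of the limits were close to each other in some genes and not in others. The 21 members with 3 Rspo3 UMIs had Bmp2 at 3.03 (2.59 to 3.52) and Msx2 at 0.552 (0.375 to 0.784) per 10000. The 18 cells with 2 Rspo3 UMIs, just outside, had Bmp2 at 1.66 (1.31 to 2.09) and Msx2 at 0.821 (0.578 to 1.13). At the Myl2 limit, the 15 Rspo3-bearing cells with Myl2 between 7 and 10 per 10000 had Tbx2 at 0.637 (0.399 to 0.965), and the 10 cells between 10 and 13 had it at 1.74 (1.23 to 2.39). Bmp2 thus differed across the Rspo3 limit and Tbx2 across the Myl2 limit beyond counting error, while the Msx2 intervals overlapped. At the Rspo3 limit, Tbx2 (0.338 inside, 0.399 outside) and Tbx3 (0.285 and 0.355) were not higher inside, with overlapping intervals. Hand1 was lower inside, at 0.089 (0.029 to 0.208) against 0.776 (0.541 to 1.08). The members are cells within set limits, and no clustering was used.

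The label of the cells as canal muscle rests on Bmp2, Tbx2 and Tbx3, which are not in the rule. Label and genes were set with earlier results of these data known, so the levels describe the cells and are no independent support. Bmp2 (chr2:133552159-133562885, plus strand), the growth factor that induces the canal programme, ranged from 0 to 16.1 per 10000 over single members with a median of 1.82. In the other Myl2-low cells it ranged from 0 to 12.5 with a median of 0. Members thus reached the higher values, but the ranges overlapped. Over summed UMIs Bmp2 was at 2.89 in the members and 0.717 in the other Myl2-low cells, a ratio of 4.03 (3.62 to 4.50).

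Tbx2 (chr11:85832551-85841948, plus strand), a repressor of chamber genes, ranged from 0 to 4.27 with a median of 0.419 in the members, and from 0 to 2.36 with a median of 0 in the other Myl2-low cells. Its summed level was 0.612 against 0.148, 4.13-fold higher (3.24 to 5.28). Tbx3 (chr5:119670669-119684724, plus strand), its close relative and a marker of the future conduction system, ranged from 0 to 5.45 with a median of 0.371 in the members and from 0 to 2.23 with a median of 0 outside. Summed over cells it was at 0.539 against 0.129, 4.19-fold higher (3.23 to 5.46). All 3 genes were thus about 4-fold higher in the members than in the other Myl2-low cells, with overlapping cells. In that comparison the Bmp2 ratio was 2.58 when cells were thinned before the rule. The Tbx3 ratio ran from 2.88 with at least 5 Rspo3 UMIs to 6.78 with at least 1. Against all other E9.5 cardiomyocytes the ratios were smaller, at 3.57 (Bmp2), 2.68 (Tbx2) and 3.35 (Tbx3). The Tbx2 ratio there was 2.15 with Myl2 under 5 per 10000.

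Because deeper cells more often show a UMI, shares of cells were also taken after thinning each cell to 10000 UMIs, which left 124 members and 260 other Myl2-low cells. Bmp2 was then seen in 68.5% of members (59.6 to 76.6, exact binomial) and 25% of the other Myl2-low cells. The share with Tbx2 was 39.5% against 11.2%, and that with Tbx3 39.5% against 12.7%. Unthinned, the members' shares were 80.9%, 69.5% and 61.8%. Erythroid cells, thinned alike from a median of 32559 UMIs, had shares of 2.1%, 0.84% and 0% (0 of 238 cells, which allows up to 1.26% as 3 counts of the total).

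The 3 genes did not mark every member. After thinning, 23 of the 124 members (18.5%) had a UMI of all 3, 38 had exactly 2, 38 had exactly 1 and 25 (20.2%) had none. At least 1 was seen in 79.8% of members (71.7 to 86.5), 35% of the other Myl2-low cells (29.2 to 41.1) and 2.94% of erythroid cells. Whether members without a UMI of the 3 genes missed them by chance at this depth was not tested. Without thinning, 27 members had fewer than 3 UMIs of the 3 genes in sum. Their summed Bmp2 level was 0.110 (0.044 to 0.226), against 3.57 (3.34 to 3.81) in the other 104. Bmp2 is part of that choice, which itself widens the gap.

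**Figure D2:**
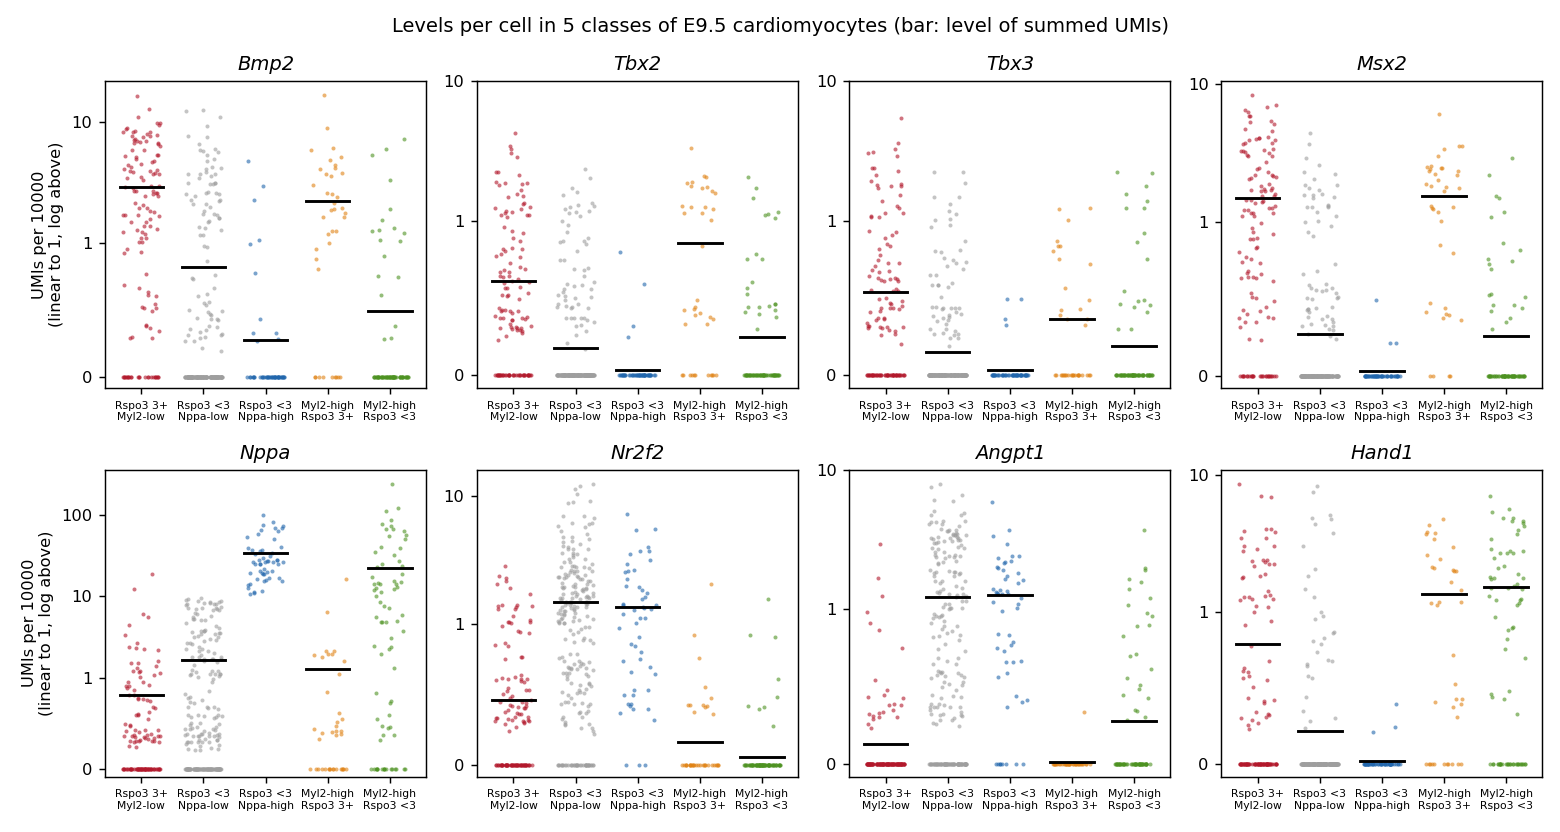
Level of 8 genes in single E9.5 cardiomyocytes (vertical axes, UMIs per 10000, linear to 1 and logarithmic above) in 5 classes, each point a cell and each bar the level of the summed UMIs. Bmp2, Tbx2, Tbx3 and Msx2 are higher in the Rspo3-positive Myl2-low cells than in both Myl2-low classes with fewer than 3 Rspo3 UMIs, Nr2f2 and Angpt1 are lower, and Nppa reaches 98.9 per 10000 in the class that it defines.

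Across the transcriptome the members stayed close to their neighbours. Of 3116 genes at 0.5 per 10000 or more in either class and outside the rule, 1.44% were at least 2-fold higher and 0.995% at least 2-fold lower in the members than in the other Myl2-low cells, 45 and 31 genes. The median log2 ratio was 0.00, and 5% of genes lay below -0.48 and 5% above 0.60. Against all 413 other E9.5 cardiomyocytes, which include 117 Myl2-high cells, 0.75% of 3065 genes were at least 2-fold higher and 0.685% at least 2-fold lower, 23 and 21 genes. These shares are the background against which the counts per gene list below are to be read.

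**Figure D3:**
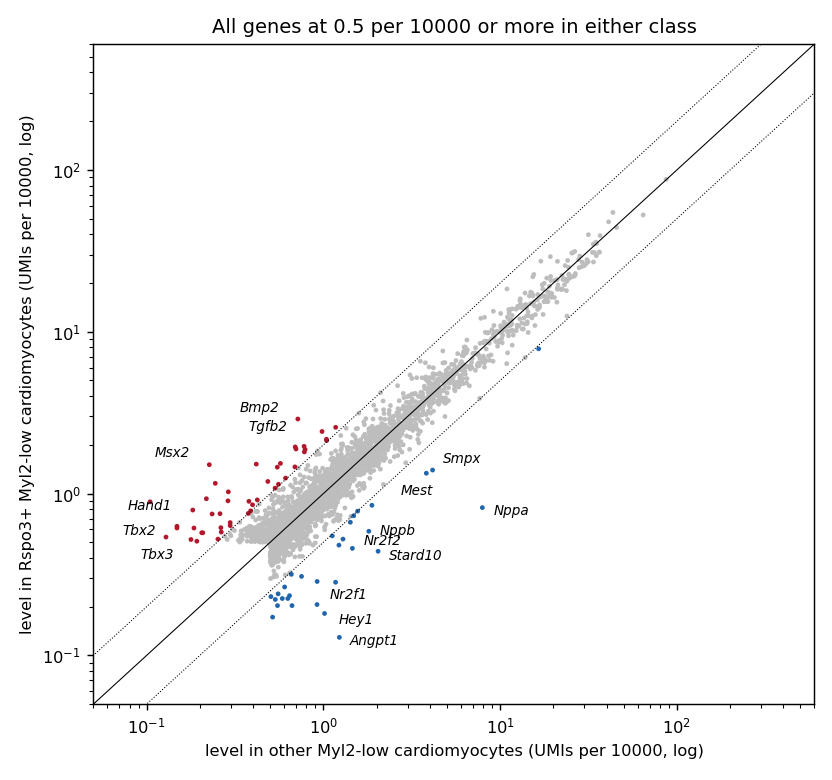
Level of each gene in the Rspo3-positive Myl2-low cardiomyocytes (vertical) against the other Myl2-low cardiomyocytes (horizontal), both in UMIs per 10000 on logarithmic axes, with dotted lines at 2-fold; the rule's genes are left out. The 45 red and 31 blue genes lie at or beyond the lines; Msx2, Hand1, Bmp2, Tbx2 and Tbx3 are among the higher ones, and Nppa and Angpt1 lie farthest below the diagonal.

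In the canal patterning list, 8 of 12 genes reached the level limit in this comparison, of which 5 were at least 2-fold higher (Bmp2, Tbx2, Tbx3, Msx2 and Tgfb2), 1 was at least 2-fold lower (Shox2) and the median log2 ratio was 1.75. Msx2 (chr13:53466884-53473074, minus strand), a homeobox factor and BMP target, had the largest ratio of the list. It ranged from 0 to 8.32 per 10000 with a median of 1.10 in the members and from 0 to 4.46 with a median of 0 in the other Myl2-low cells. Its summed level was 1.51 against 0.226, 6.67-fold higher (5.57 to 8.02), and after thinning it was seen in 66.9% of members, 15% of the others and 1.68% of erythroid cells. Most members thus had Msx2 and most of their neighbours did not. Against all other cardiomyocytes the Msx2 ratio was 4.31.

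Tgfb2, a ligand that drives cushion formation, ranged from 0 to 11.7 with a median of 1.61 in the members and from 0 to 6.59 with a median of 0.350 outside. Over summed UMIs Tgfb2 was at 1.94 against 0.693, 2.80-fold higher (2.49 to 3.16). Against all other cardiomyocytes the Tgfb2 ratio was 2.08, and 1.42 with Myl2 under 5 per 10000. Shox2, a factor of the sinus node and venous pole, was at 0.203 against 0.550, a ratio of 0.369 (0.280 to 0.481). The channel and gap junction genes of slow conduction were scarce. Hcn4, the pacemaker channel, had 9 UMIs over all members (0.028 per 10000) and was not higher than outside. It stood at 0.074 (0.038 to 0.129) in the 65 other Myl2-low cells with at least 3 UMIs of Bmp2, Tbx2 and Tbx3 in sum. In the remaining 231 it stood at 0.059 (0.040 to 0.083). Over all members Cacna1g, a T-type calcium channel, had 2 UMIs, and Gjd3, a low-conductance connexin, had 0. Gjc1, another slow connexin, was at 0.668 against 0.519, a ratio of 1.29 (1.08 to 1.53).

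Genes that respond to BMP signals were higher together, though most by less than 2-fold. Of 16 listed genes 8 reached the level limit, all 8 had a ratio above 1, 1 (Msx2) was at least 2-fold higher, and the median log2 ratio was 0.84. The Id proteins, which block bHLH factors, had ratios of 1.42 (Id1), 1.51 (Id2), 1.83 (Id3) and 1.97 (Id4). Id2 ranged from 0 to 37.7 per 10000 with a median of 11.1 in the members and from 0 to 51.9 with a median of 6.98 outside, so that the cells overlapped over nearly the whole range. The feedback inhibitors Smad6, Smad7 and Bambi had ratios of 1.84 (1.58 to 2.14), 1.68 (1.39 to 2.03) and 1.77 (1.65 to 1.89).

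Among the BMP ligands, receptors and Smads, 4 of 15 genes reached the level limit and none was 2-fold apart. Bmp4 was at 0.686 against 0.414, but its ratio of 1.66 ran from 0.982 to 2.90 over other ways of setting the classes. Bmp7 (0.849, 0.749 to 0.960), the type I receptor Bmpr1a (1.18, 0.976 to 1.42) and the type II receptor Acvr2b (0.776, 0.635 to 0.943) lay near 1. The BMP antagonist Fst had 4 UMIs in the members (0.012 per 10000) and stood at 0.218 outside, both under the level limit.

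**Figure D4:**
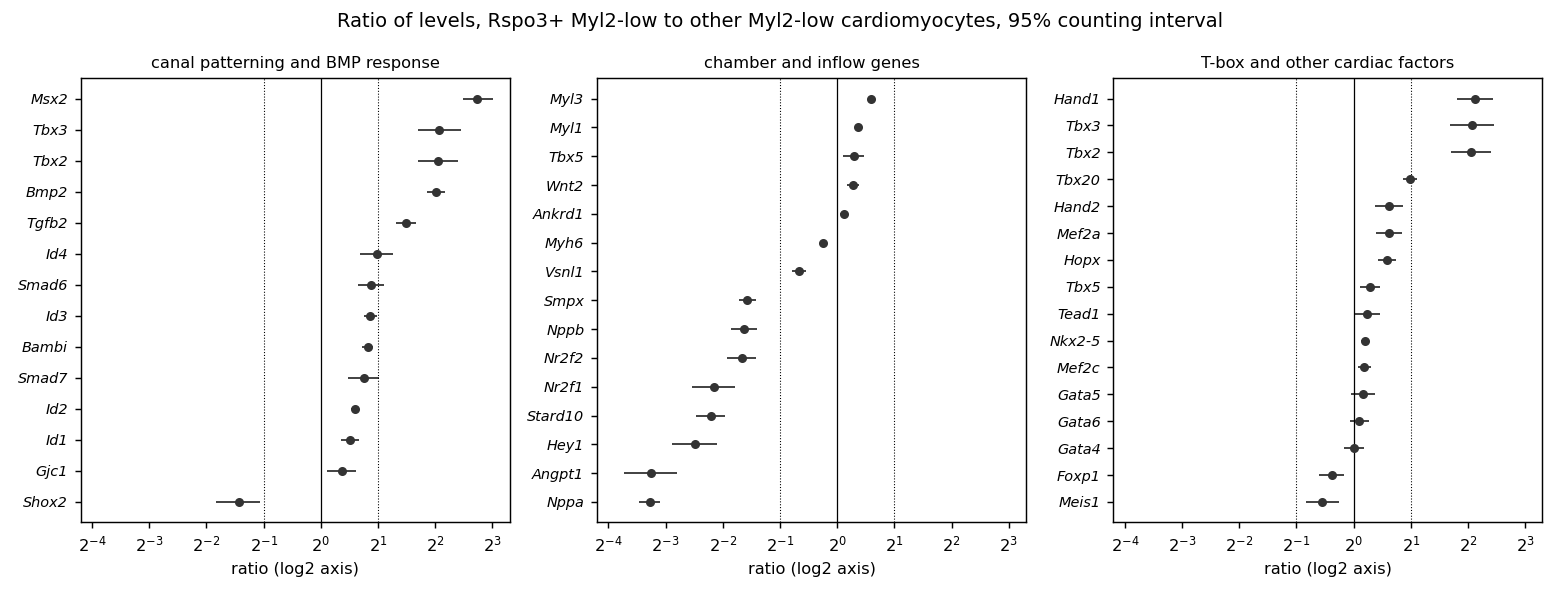
Ratio of levels, Rspo3-positive Myl2-low over other Myl2-low cardiomyocytes, on a log2 axis, for listed genes at 0.5 per 10000 or more in either class; points are ratios, bars 95% counting intervals, dotted lines 2-fold. Canal and BMP response genes lie right of 1 except Shox2, while chamber and inflow genes run from 0.103 for Nppa to 1.51 for Myl3.

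Several genes of the working chamber were lower, led by Nppa, but not the list as a whole. Of 19 listed genes 7 reached the level limit, 0 were at least 2-fold higher, 5 were at least 2-fold lower (Nppa, Nppb, Smpx, Stard10 and Hey1), and the median log2 ratio was -1.63. Myl3 (1.51, 1.47 to 1.55) and Ankrd1 (1.08, 1.04 to 1.13) were above 1. Summed, the 19 genes stood at 44.7 per 10000 in the members, 47.3 in the other Myl2-low cells and 36.3 in those of them low in Nppa, and the median per cell was 43.3 in the members and 40.2 in the other Myl2-low cells. Nppa (chr4:148000722-148002079, plus strand), which encodes atrial natriuretic factor and is the classic marker of chamber muscle, ranged from 0 to 18.7 per 10000 with a median of 0.312 in the members. In the other Myl2-low cells it ranged from 0 to 98.9 with a median of 0.598. Its summed level was 0.819 against 7.93, a ratio of 0.103 (0.091 to 0.117). The gap came largely from 54 Nppa-high cells outside the members, defined by at least 10 per 10000, where Nppa was at 34.2; in the 242 Nppa-low cells it was at 1.66. Erythroid cells, which should lack Nppa, held it at 0.275 per 10000, and after thinning it was seen in 29.8% of members, 55.4% of the other Myl2-low cells and 19.7% of erythroid cells.

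The lower genes besides Nppa were these, with Hey1 given under the inflow genes. Nppb, the second natriuretic peptide, was at 0.585 against 1.81 (ratio 0.324, 0.276 to 0.377), and 6.08 in the Nppa-high cells. Smpx, a small muscle protein of the chamber programme, was at 1.40 against 4.15 (0.337, 0.305 to 0.372). Stard10, a lipid transfer protein, was at 0.440 against 2.04 (0.216, 0.181 to 0.257). These genes were also lower in the members than in the Nppa-low cells, where Smpx was at 3.05 and Stard10 at 1.84. Nppb stood at 0.786 there. Over the other settings the ratio ran from 0.0906 to 0.178 for Nppa, 0.168 to 0.413 for Nppb and 0.141 to 0.293 for Stard10. The fast connexin Gja5 had 7 UMIs in the members against 208 in the other Myl2-low cells, or 0.022 against 0.294 per 10000 and thus under the level limit. Against all other cardiomyocytes, 9 of the 19 genes reached the limit and 6 were at least 2-fold lower, with Pln, the phospholamban gene, as the sixth (0.317 against 0.800). Against the other Myl2-low cells Pln pointed the other way, at 0.317 against 0.213 (1.48, 1.15 to 1.92), under the level limit, and its ratio there ran from 0.320 to 2.18 over the other settings.

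The Nppa promoter is shown because T-box and Nkx2-5 type sites are known to lie in this region of the gene, and the Stard10 promoter because it was the other lower gene with a T-box half-site. RefSeq promoter sequence (GRCm38.p6, 250 bases before the start, plus strand) was searched on both strands for the T-box half-site GGTGTGA, which on the other strand reads TCACACC, and for the letters TNAAGTG of the Nkx2-5 type, where N is any base. Capitals mark the matches.
Nppa (chr4:148000472-148000721): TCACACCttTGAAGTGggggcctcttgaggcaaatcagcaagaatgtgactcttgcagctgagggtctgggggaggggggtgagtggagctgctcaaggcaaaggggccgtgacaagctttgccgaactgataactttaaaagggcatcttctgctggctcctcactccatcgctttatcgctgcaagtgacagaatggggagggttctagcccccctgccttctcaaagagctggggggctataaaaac
Stard10 (chr7:101316836-101317085): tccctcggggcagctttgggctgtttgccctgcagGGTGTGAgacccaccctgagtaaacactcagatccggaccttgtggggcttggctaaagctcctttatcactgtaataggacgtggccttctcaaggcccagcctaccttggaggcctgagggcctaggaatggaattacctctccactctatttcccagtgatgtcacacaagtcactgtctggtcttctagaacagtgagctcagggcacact
In Nppa, TCACACC lies 250 to 244 bases and TGAAGTG 241 to 235 bases before the start, and in Stard10 GGTGTGA lies 215 to 209 bases before it. Over all 32851 promoters of this length, 3.33% held GGTGTGA, 10.1% held TNAAGTG and 0.377% held both. Of the genes named by their ratio, 16 lower ones had 12 with a promoter in the table (14 promoters). Of these 12 genes, 2 held the half-site (Nppa and Stard10) and 1 the Nkx2-5 type (Nppa). The 15 higher ones had 12 genes with a promoter (17 promoters). Of those, 0 held the half-site and 2 the Nkx2-5 type (Casp6 and Ndrg2). These counts are per gene, whereas the shares over all promoters are per promoter. A match is a description of letters, and occupancy was not measured.

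Some genes of the atrial and inflow side were also lower than in the other Myl2-low cells. In that list 10 of 12 genes reached the level limit, 0 were at least 2-fold higher, 4 were at least 2-fold lower (Nr2f1, Nr2f2, Angpt1 and Hey1, which the chamber list also holds), and the median log2 ratio was -0.63. Nr2f2 (chr7:70351944-70366735, minus strand), the orphan receptor COUP-TFII that marks atrial identity, ranged from 0 to 2.82 with a median of 0.323 in the members and from 0 to 12.5 with a median of 1.12 outside. Over all cells Nr2f2 was at 0.459 against 1.46 (ratio 0.314, 0.263 to 0.374). Angpt1 (chr15:42424723-42676977, minus strand), an angiopoietin made by atrial muscle, ranged from 0 to 2.94 with a median of 0 in the members and from 0 to 7.96 with a median of 0.737 outside, and its summed level was 0.129 against 1.23 (0.105, 0.075 to 0.143), with ratios from 0.0582 to 0.173 over the other settings. After thinning Angpt1 was seen in 8.06% of members, 49.6% of the others and 2.52% of erythroid cells. Few members carried it.

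Nr2f1, the COUP-TFI gene, was at 0.206 against 0.920 (0.224, 0.172 to 0.288) and Hey1, a Notch target of atrial muscle, at 0.182 against 1.02 (0.179, 0.135 to 0.233). Not all inflow genes were low. Tbx5, needed for atrial and canal development, was at 1.20 against 0.984 (1.22, 1.08 to 1.38) and Wnt2 at 3.15 against 2.60 (1.21, 1.12 to 1.31). Vsnl1 was lower, at 2.16 against 3.42 (0.632, 0.580 to 0.688). Summed, the 12 listed inflow genes were at 30.9 in the members and 34.0 in the other Myl2-low cells. The ratio of these sums was 0.907 (0.886 to 0.929). After thinning, 51.6% of members and 92.7% of the other Myl2-low cells had a UMI of at least 1 of Nr2f1, Nr2f2, Angpt1 and Hey1, a group chosen after their values were seen. In Myl2-high cells the share was 35.3% with at least 3 Rspo3 UMIs and 35.2% with fewer, so the members lay between.

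On the ventricular and outflow side, 6 of 12 listed genes reached the level limit, all 6 had ratios above 1 and 1 was at least 2-fold higher. That gene was Hand1 (chr11:57828705-57832818, minus strand), a bHLH factor of the left ventricle and outflow. It ranged from 0 to 8.65 with a median of 0 in the members and from 0 to 8.35 with a median of 0 outside, so the typical cell of either class had none. Its summed level was 0.791 against 0.182 (4.34, 3.50 to 5.40), and after thinning it was seen in 32.3% of members, 8.08% of the others and 0.42% of erythroid cells. In Myl2-high cells it stood higher, at 1.35 with at least 3 Rspo3 UMIs and 1.53 with fewer, and against all other cardiomyocytes the members' ratio was 1.53 (1.03 to 2.11 over the other settings). Against the other Myl2-low cells the Hand1 ratio reached 7.75 with a cardiomyocyte limit of 300 per 10000. Irx4, the ventricular Iroquois factor, was at 0.311 against 0.035, 8.80-fold higher (5.63 to 14.2), but under the level limit, and at 0.973 and 0.760 in the Myl2-high cells. Myh7, the slow myosin of the ventricle, was at 2.32 against 1.91 (1.22, 1.11 to 1.33), and 13 in Myl2-high cells with fewer than 3 Rspo3 UMIs. The Myh7 ratio was 0.940 with cells chosen by Bmp2, Tbx2 and Tbx3.

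Of 7 T-box genes 4 reached the level limit and 2 (Tbx2 and Tbx3) were at least 2-fold higher. Tbx20, another cardiac T-box factor, ranged from 0 to 10.9 with a median of 3.10 in the members. Outside it ranged from 0 to 10.5 with a median of 1.18, and the ratio was 1.98 (1.82 to 2.15). Tbx18, a gene of the venous pole and epicardium, had 8 UMIs (0.025 against 0.205). Among 19 other cardiac factors 12 reached the limit and Hand1 alone was 2-fold apart. The core factors were nearly level: Nkx2-5 had a ratio of 1.15 (1.10 to 1.21), Gata4 1.01 (0.885 to 1.14), Gata6 1.07 (0.958 to 1.20) and Mef2c 1.14 (1.05 to 1.23). Meis1 (0.685, 0.560 to 0.833) and Foxp1 (0.765, 0.657 to 0.888) were lower.

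The machinery that reads R-spondins was thin in the members themselves. Of 12 listed receptors, ligases and partners only Gpc3, a glypican, reached the level limit, at 1.90 against 2.55 (0.746, 0.680 to 0.818). The receptor Lgr4 had 24 UMIs over all 131 members (0.074 per 10000 against 0.209 outside), Lgr5 had 1 and Lgr6 had 0. The ligase Znrf3 had 20 UMIs (0.062 against 0.072) and Rnf43 had 1, while the co-receptor Lrp6 was at 0.354 against 0.288. The other R-spondin genes were nearly silent, with 8 UMIs of Rspo1, 1 of Rspo2 and 0 of Rspo4. Erythroid cells held Lgr4 at 0.217, so its level in the members was below the level there.

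Among 19 Wnt ligands Wnt2 alone reached the level limit, and 11 had 0 UMIs in the members. Of 19 Frizzled receptors and secreted antagonists 3 did. Fzd2 was at 0.536 against 0.465 (1.15, 0.953 to 1.39) and the antagonist Sfrp1 at 1.08 against 1.69 (0.639, 0.565 to 0.720). Sfrp5, an antagonist of the venous pole, was at 0.203 against 0.664 (0.306, 0.233 to 0.396), but its ratio to all other cardiomyocytes, 0.388, turned to 1.26 when cells were chosen by Bmp2, Tbx2 and Tbx3 in place of Rspo3. Wnt target genes gave few UMIs: Axin2 had 11 (0.034 against 0.020), Lef1 99 (0.305 against 0.182, ratio 1.67, 1.27 to 2.19), Nkd1 58 (0.179 against 0.089, ratio 2.0, 1.38 to 2.91) and Sp5 0. Of the 16 core and target genes 3 reached the level limit (Ctnnb1, Gsk3b and Bambi), and none was 2-fold apart. Most target genes were too scarce at this depth for a difference to be seen.

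Sarcomere genes differed from the other Myl2-low cells in either direction, mostly by less than 2-fold. All 20 sarcomere genes reached the level limit, 1 was at least 2-fold higher (Tcap, the titin cap protein, 2.57 against 1.17, ratio 2.19, 1.99 to 2.41), 0 were lower, and the median log2 ratio was 0.12. Actn2 was 1.70-fold (1.61 to 1.80), Myl3 1.51-fold (1.47 to 1.55) and Tnni3 1.46-fold (1.41 to 1.5) higher, whereas Myh6 had a ratio of 0.846 (0.811 to 0.882) and Acta2 0.818 (0.804 to 0.832). Of 15 calcium handling genes 7 reached the limit and Trdn, the triadin gene, was 2.32-fold higher (2.06 to 2.61), while the calcium pump Atp2a2 (0.721, 0.686 to 0.757) and Casq1 (0.649, 0.590 to 0.712) were lower. Sln, the sarcolipin gene, had 65 UMIs in the members, or 0.200 against 0.037, and 0 in all Myl2-high cells, under the level limit.

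In the cardiac jelly and matrix list 3 of 17 genes reached the limit and none was 2-fold apart. Vcan, the versican core of the jelly, was at 1.37 against 0.953 (1.43, 1.27 to 1.62) and Sparc at 5.14 against 3.17 (1.62, 1.52 to 1.73). Has2, the enzyme that makes the hyaluronan of the jelly, was at 0.222 against 0.059 (3.73, 2.52 to 5.60), under the limit. Of 11 Notch and neuregulin genes 0 reached it. The ligand Jag1 was at 0.148 against 0.404 (0.365, 0.263 to 0.497), and the Notch target Hes1 at 0.289 against 0.116 (2.5, 1.84 to 3.40).

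Cell cycle genes leaned lower by less than 2-fold. Of 23 G2/M genes 17 reached the level limit, 16 had a ratio below 1, 0 were 2-fold apart, and the median log2 ratio was -0.32, although it turned to 0.22 when cells were chosen by Bmp2, Tbx2 and Tbx3. Nusap1 (0.628, 0.525 to 0.747) and Cenpf (0.670, 0.579 to 0.773), both of the mitotic spindle, were lowest, and Ccnb2 (1.24, 1.10 to 1.40) was above 1. The summed level of the 23 genes per cell ranged from 2.39 to 142 with a median of 16.6 in the members and from 1.5 to 136 with a median of 35 in the other Myl2-low cells. The middle member thus carried less than the middle neighbour, but the classes covered the same range. Of 23 S phase genes 13 reached the limit, none was 2-fold apart, and the median log2 ratio was -0.15, a value that turned positive under 2 of the other settings (0.080 with at least 5 Rspo3 UMIs and 0.014 with a higher cardiomyocyte limit). Cyclin D2 (Ccnd2), which drives entry into S phase, was at 0.723 against 1.43 (0.506, 0.437 to 0.583) and, against all other cardiomyocytes with their 2.70, at a ratio of 0.268.

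Among genes in no list and at 1 per 10000 or more, those with the largest ratios were Perp, a desmosome protein (1.16 against 0.245, ratio 4.73, 3.94 to 5.70), Cdo1, cysteine dioxygenase (1.52 against 0.417, 3.65, 3.15 to 4.23), and Gal, the neuropeptide galanin (1.02 against 0.290, 3.54, 2.96 to 4.23). Lbh, Capn6, Anxa2, Ndrg2, Sox4 and Mgarp followed with ratios from 2.45 to 2.70, although Anxa2 came to 1.45 when cells were thinned before the rule. The Perp ratio ran from 3.09 to 5.55 over the settings, and that of Gal reached 6.97 with cells chosen by Bmp2, Tbx2 and Tbx3. Against all other cardiomyocytes the ratios were 2.78 for Perp, 3.14 for Cdo1 and 2.72 for Gal. Gal was concentrated in few members. After thinning it was seen in 27.4% of them, against 9.23% of the other Myl2-low cells and 1.68% of erythroid cells, with a highest value of 27.2 per 10000. The lowest ratios outside the lists were those of Calca (0.242, and 0.399 with at least 1 Rspo3 UMI), Mest (0.349), Tmem163 (0.392), Dap (0.405) and Aif1l (0.450). Of these Mest, an imprinted gene, was at 15.7 in Myl2-high cells with fewer than 3 Rspo3 UMIs and at 1.34 in the members.

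Besides these, 3 genes past 4-fold fell under the level of 1 per 10000 set for naming and were chosen after their values were seen. Gatm, which makes the creatine precursor guanidinoacetate, was at 0.889 in the members against 0.105 in the other Myl2-low cells, 8.50-fold higher (6.57 to 11.1) and the largest ratio of the 3116 genes. It was seen after thinning in 43.5% of members, 10.0% of the other Myl2-low cells and 0.84% of erythroid cells. Pnmt, which converts noradrenaline to adrenaline, was at 0.929 against 0.218 (4.27, 3.50 to 5.22) and was seen in 46.8% against 15.4%, and in 1.26% of erythroid cells. Both were also at 0.844 (Gatm) and 0.774 (Pnmt) in Myl2-high cells with at least 3 Rspo3 UMIs, and at 0.235 and 0.344 in those with fewer. Tppp3, a tubulin-binding protein, was at 0.628 against 0.148 (4.23, 3.33 to 5.40), but its median was 0 in both classes, and after thinning it was seen in 20.2% of members (13.5 to 28.3), 13.5% of the others (9.56 to 18.2) and 0.84% of erythroid cells. The highest member reached 8.09 per 10000. In Myl2-high cells with fewer than 3 Rspo3 UMIs Tppp3 was at 0.785.

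The members were also described by their number of Rspo3 UMIs, a gene of the rule. They were set in 3 bands of 3 to 5 UMIs (62 cells), 6 to 9 (36 cells) and 10 or more (33 cells), whose median depths were 23869.5, 27550 and 23032 UMIs. Msx2 stood at 0.903 (0.757 to 1.07), 1.63 (1.39 to 1.91) and 2.52 (2.18 to 2.89) per 10000 over the bands, and Tgfb2 at 1.45 (1.26 to 1.66), 1.89 (1.62 to 2.18) and 2.95 (2.58 to 3.36). Hand1 stood at 0.415, 0.995 and 1.26. The intervals leave out the spread among cells. In summed counts Msx2, Tgfb2 and Hand1 were higher in the bands with more Rspo3. Bmp2 was not, at 3.20 (2.92 to 3.50), 2.37 (2.07 to 2.70) and 2.94 (2.57 to 3.35), and Tbx3 stood at 0.562, 0.544 and 0.488. Tbx2 was highest in the top band, at 0.515 (0.406 to 0.644), 0.554 (0.416 to 0.723) and 0.873 (0.678 to 1.11). Myl2 stood at 2.29, 2.40 and 3.83, so the bands also differed in Myl2. Angpt1 was lower with each band, at 0.194, 0.103 and 0.039, and Nr2f2 stood at 0.522, 0.513 and 0.270.

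**Figure D5:**
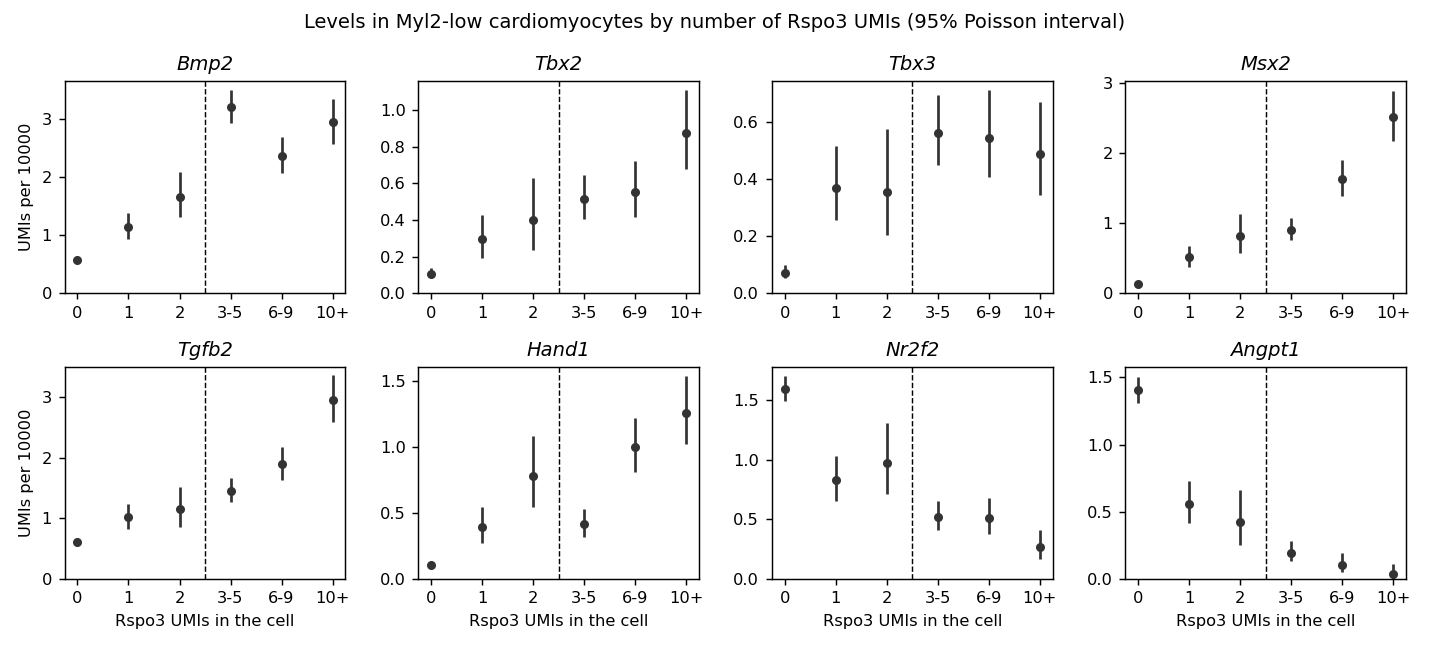
Level of 8 genes (vertical axes, UMIs per 10000 of summed counts, with 95% Poisson intervals) in Myl2-low cardiomyocytes by Rspo3 UMIs in the cell; members lie right of the dashed line. Msx2 climbs from 0.903 to 2.52 over the members' bands, Bmp2 starts at 3.20 and shows no such order, and Angpt1 goes from 1.40 in cells with 0 Rspo3 UMIs to 0.039 in those with 10 or more.

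Cell by cell the same relations were weak. Over the 124 thinned members, which share 1 library and 1 depth, Rspo3 and Msx2 had a Pearson r of 0.364 and a Spearman rho of 0.403. Rspo3 and Bmp2 had 0.098 and 0.044, and Bmp2 and Tbx3 0.293 and 0.225. Bmp2 and Hand1 ran in opposite directions at -0.221 and -0.210. With mean counts of 0.605 (Tbx2) to 3.27 (Rspo3) UMIs per thinned cell in the canal genes, such weak correlations are no finding.

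A further 39 cardiomyocytes carried at least 3 Rspo3 UMIs but exceeded the Myl2 limit, a split made after the data were seen. Rspo3 was at 4.32 per 10000 in them, Bmp2 at 2.19, Tbx2 at 0.856, Tbx3 at 0.364, Msx2 at 1.55 and Tgfb2 at 3.26. In the 78 Myl2-high cells with fewer than 3 Rspo3 UMIs the same genes were at 0.121, 0.495, 0.247, 0.193, 0.260 and 0.773. Each of these genes was thus at a higher summed level in the 39 cells, with Tbx3 the closest. Rspo3 itself made the split, so the levels describe the cells and are no independent support. Nppa was at 1.31 in the 39 cells and 22.1 in the 78. Compared with the 39 cells, the members had more Nr2f2 (0.459 against 0.164), Shox2 (0.203 against 0.047), Bmp4 (0.686 against 0.176) and Sln (0.200 against 0), and less Tgfb2 (1.94 against 3.26), Hand1 (0.791 against 1.35) and Irx4 (0.311 against 0.973).

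Choosing Myl2-low cardiomyocytes by at least 3 UMIs of Bmp2, Tbx2 and Tbx3 in sum, also after the data were seen, gave 169 cells. They shared 104 cells with the members, 79.4% of the members and 61.5% of the 169. The 65 cells outside the members had Msx2 at 0.609, Nppa at 2.82 and Nr2f2 at 0.659 per 10000, and 32 of them had 0 Rspo3 UMIs. The 27 members outside the 169 had Bmp2 at 0.110, Msx2 at 0.924 and Nppa at 1.17. Msx2 was thus above its 0.112 in cells outside both groups whichever way the cells were chosen.

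Markers of other cells were measured in the members, since a Tie2-Cre sort should keep endothelial descendants. The muscle genes were plain, with a summed level of Myl7, Myl4, Tnnt2 and Actc1 of 113 to 862 per 10000 per member (median 558), against a median of 14.3 in the 406 kept cells that were neither cardiomyocytes nor erythroid. The 12 endothelial markers summed to 0.856 per 10000 in the members, 0.673 in the other Myl2-low cells and 10.4 in those 406 cells. Kdr, the VEGF receptor, accounted for the excess. It was at 0.520 in the members against 0.178 (2.92, 2.31 to 3.71). At least 2 UMIs of Pecam1, Cdh5, Tek, Kdr and Emcn in sum were found in 62 of 131 members (47.3%). The same held for 54 of 296 other Myl2-low cells (18.2%) and for 12.9% of erythroid cells. Without Kdr the other 11 markers summed to 0.335 in the members, 0.495 in the other Myl2-low cells and 0.387 in erythroid cells. Pecam1 was at 0.065, Cdh5 at 0.018, Emcn at 0.0062 and Tek, the gene of Tie2 itself, at 0.046, against 0.106, 0.019, 0.019 and 0.018 in erythroid cells. Per cell the endothelial sum ranged from 0 to 4.11 in the members and from 0 to 17.6 in the other Myl2-low cells.

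The 9 cushion mesenchyme markers summed to 0.954 in the members, 0.577 in the other Myl2-low cells and 9.41 in the 406 other cells, with Prrx1 at 0.345 against 0.092 and Hapln1 at 0.311 against 0.174. The 8 epicardial markers summed to 0.939 against 1.72, the 6 leukocyte markers to 0.062 against 0.044, with Tyrobp at 0, and the 7 pharyngeal and neural crest markers to 0.145 against 0.209, with Sox10 and Tfap2b at 0. The 12 dissociation genes summed to 6.07 against 6.41, and globin stood at a median of 63.5 against 65.8. The part of these cells in the results was not tested. With the cells of at least 2 UMIs of those 5 endothelial genes left out, 69 members remained and the median log2 ratio of the canal list was 1.49. Scrublet scored 4 of the 1199 kept cells as doublets, 0 of them members, too few to rely on the caller.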

How the data were processed

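Droplet 3' RNA libraries of sorted cells were analysed from 4 samples. The deposited values are UMI counts per gene and cell, whole numbers with no normalization, from the authors' run of Cell Ranger 2.1.1 and mm10, both named in the submitters' processing notes. Whether counting used strand is not given in the sources used here. Deposited gene tables pair Ensembl identifiers with symbols. Counts were summed per class (Python 3.11.15, numpy 2.4.6, scipy 1.17.1, pandas 2.3.3, scanpy 1.11.5 for scrublet) and given per 10000 UMIs with exact Poisson intervals, and ratios with exact conditional binomial intervals, all 95%; the ratio code was tested on simulated data. The members hold 3249253 UMIs and the other Myl2-low cells 7073595. Levels of different genes were not compared. Besides the listed genes, the 12 highest and 12 lowest ratios in each comparison were named, among genes at 1 or more per 10000 and in at least 20% of cells. Some listed genes are not reported here. Positions come from GENCODE M21, GRCm38. The members, lists and limits were chosen with earlier results of these data known. Alternatives varied the Rspo3, Myl2, cardiomyocyte, globin and level limits, depth and scaling.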

Additional observations from a re-analysis of the deposited data

How the results depend on the processing

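Counts of genes past 2-fold moved with the settings. Against the other cardiomyocytes (23 higher, 21 lower) they were 14 higher with Myl2 under 5 per 10000, 46 and 45 with cells thinned to 10000 UMIs before the rule (67 members), 2 and 5 with a level of at least 2 per 10000 (fewer genes), and 107 and 62 at 1.5-fold. Against the other Myl2-low cells (45 and 31) thinning gave 68 and 63, the higher level 5 and 5, and 1.5-fold 163 and 96. The G2/M median log2 ratio was -0.91 and -0.92 when thinned, and 0.28 and 0.22 with cells chosen by Bmp2, Tbx2 and Tbx3, which also turned Sfrp5 against the other cardiomyocytes to 1.26. The S phase median against the other Myl2-low cells turned to 0.080 with at least 5 Rspo3 UMIs and 0.014 with a cardiomyocyte limit of 300 per 10000. The causes were not tested. Membership ran from 67 to 187 cells. The canal list's median stayed above 0 and the chamber list's below it under every setting run. For the canal list, choosing cells by Bmp2, Tbx2 and Tbx3 is no check, since the list holds these 3 genes. Ratios of single genes under these settings stayed within their counting interval in 1152 values and left it in 297 others, and 1 ratio past 2-fold (that of Sfrp5) crossed 1. Of ratios under 2-fold, or of genes under the level limit, Cdkn1c crossed 1 against the other cardiomyocytes (from 0.949 up to 1.35, above 1 in 4 settings), and against the other Myl2-low cells Bmp4 (0.982) and Pln (0.320) did when thinned, and Myh7 (0.940) with cells chosen by the 3 canal genes. No paired analysis was possible because each E9.5 class comes from 1 library. Depth limits genes under about 0.1 per 10000, such as Lgr5 and Hcn4.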
